A study of Mus musculus with 16 samples.

Results

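Axon guidance genes encode the ligands that steer growing axons and the receptors that read them, and 58 of them were followed in RNA-Seq counts of CD11b+ brain cells. The members were chosen by name and by a minimum count. Rows named as semaphorins (Sema3 to Sema7), plexins, neuropilins, Slits, Robos, netrins, Unc5 receptors, Dcc, ephrins and Eph receptors were taken where more than 10 counts were present in at least 4 of the 16 libraries. 69 rows carried such a name, and 58 of them passed this filter, among 14565 genes that passed it in the whole table. They comprised 18 semaphorins, 9 plexins, 2 neuropilins, 3 Slits, 3 Robos, 3 netrins, 3 Unc5 receptors, 7 ephrins and 10 Eph receptors.

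Semaphorins signal through plexins, and the secreted class 3 semaphorins mostly need a neuropilin as co-receptor. Slits bind Robo receptors and repel axons from the midline, and netrins attract through Dcc or repel through Unc5 receptors. Ephrins are held in the membrane, A-type by a lipid anchor and B-type by a transmembrane stretch, and signal at cell contacts through the Eph receptor tyrosine kinases. Outside the growing nervous system the same families act in vessel growth, in epithelia and in immune cells, where Sema4d, plexin-A1 with Sema6d, and neuropilin-1 are the textbook examples.

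The libraries came from C57BL/6J mice, which were female and 3 weeks old on arrival per the methods of the study. After weaning, 4 CON libraries were from mice on a standard chow and 5 MAL libraries from mice on an isocaloric diet low in protein and fat. A further 7 MAL-BG libraries were from mice on the low diet that were also gavaged with a mix of E. coli and Bacteroidales species. The diets lasted 1 month in all groups, and the methods give 3 gavages over 5 days. CON and MAL mice received gavages of buffer, so gavage itself was common to all groups. CD11b+ cells, which are microglia and other myeloid cells, were enriched from dissociated brain with magnetic beads, and the labels name cortical tissue where the methods name whole cerebra. The deposited columns give a group and a running number that matches no sample title. The replicate numbers below are those running numbers, and neither the animal nor the sequencing batch of a library could be told from them, so p-values measure the spread between these libraries.

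Library totals were 10312703 to 13461574 counts in CON, 10864121 to 12819982 in MAL and 14191791 to 18705202 in MAL-BG. Microglia markers were abundant in every library, with a summed level over 10 genes of 16615 to 26896 counts scaled to library size (CPM) for CON, 17204 to 29313 for MAL and 35140.0 to 47725 for MAL-BG. RNA of other cells was present too, and the summed choroid plexus markers exceeded the microglia markers in 3 of 4 CON, 3 of 5 MAL and 0 of 7 MAL-BG libraries. Some libraries stood apart. CON replicate 1 and MAL replicate 4 were the lowest of their groups in endothelial and choroid plexus markers. They were also the highest of their groups in microglia markers (26896 and 29313 CPM) and in border macrophage markers (629.6 and 763.3 CPM). CON replicate 4 was the highest CON library in endothelial, mural and fibroblast markers. MAL-BG replicate 3 held the most endothelial RNA of all 16 libraries, and MAL-BG replicate 5 held the most neutrophil RNA. Among the axon guidance genes, CON replicate 1 was the lowest CON library for 34 of the 58 genes and CON replicate 4 the highest for 31, MAL replicate 4 was the lowest MAL library for 28, and MAL-BG replicate 3 was the highest MAL-BG library for 31. Results that turn on these libraries are given with and without them below.

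**Figure D1:**
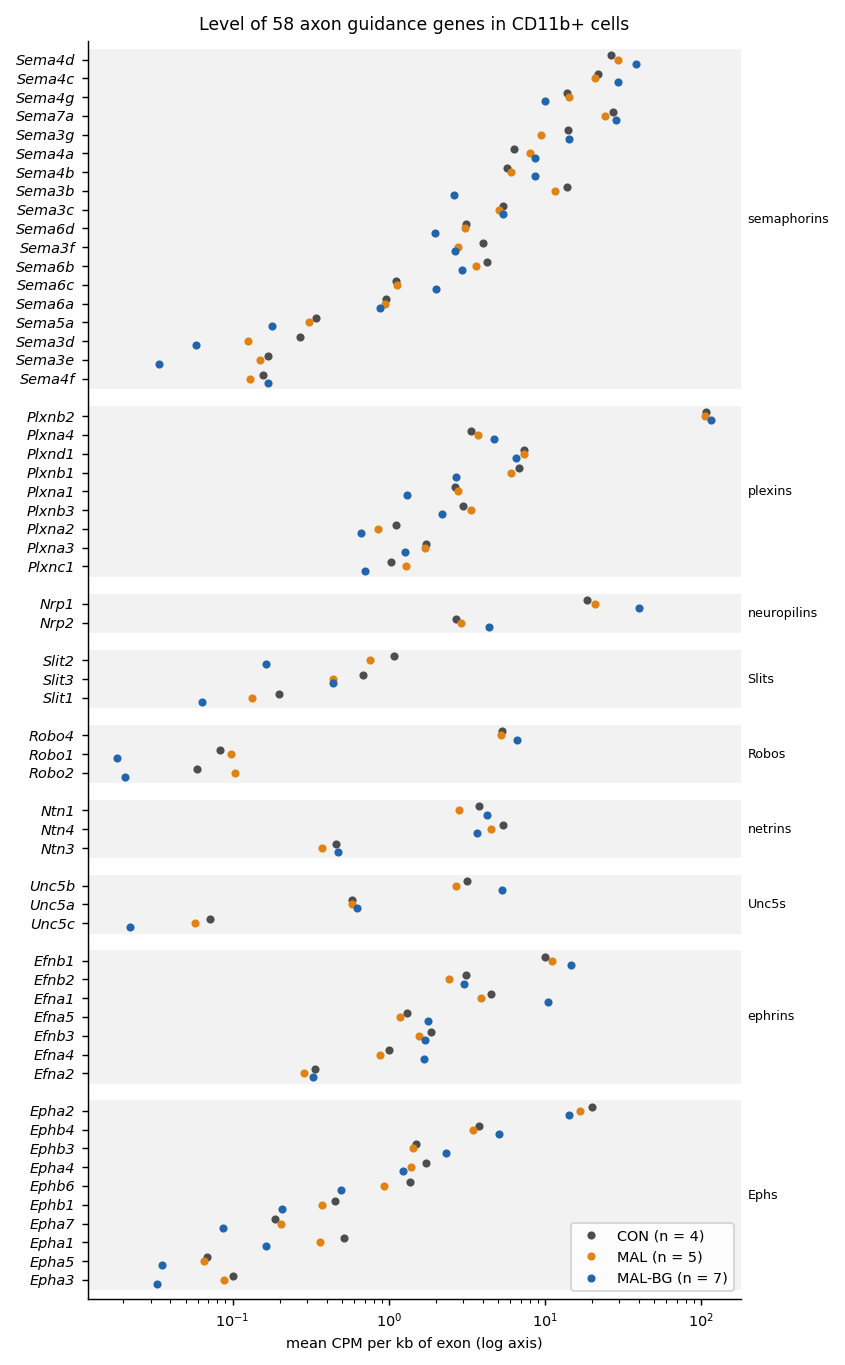
Mean CPM per kilobase of exon (log axis) of the 58 genes in CON (4 libraries), MAL (5 libraries) and MAL-BG (7 libraries), ordered within each family by mean CPM. Plxnb2 lies apart from the other genes in all 3 groups at over 100 CPM per kb and Nrp1 is second in MAL-BG.

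Levels differed by more than 3 orders of magnitude between the genes. Per kilobase of exon, the highest mean level belonged to Plxnb2, which encodes plexin-B2, a receptor of class 4 semaphorins, at 108 CPM per kb in CON and 116 in MAL-BG. In CON it was followed by Sema7a at 27.4, Sema4d at 26.6, Sema4c at 21.8, Epha2 at 20.0 and Nrp1 at 18.6 CPM per kb. In MAL-BG the order was Plxnb2, Nrp1 at 39.8, Sema4d at 38.1, Sema4c at 29.2 and Sema7a at 28.4 CPM per kb. Plexin-B2 with its ligand Sema4c and the membrane ligand Sema4d thus had high levels in each group, and Nrp1 moved from the sixth place to the second. The lowest 5 places in CON were held by Robo2 at 0.0589, Epha5 at 0.0688, Unc5c at 0.0714, Robo1 at 0.0834 and Epha3 at 0.101 CPM per kb. The 58 genes summed to 2501 ± 164 CPM for CON (SD, n = 4), 2442 ± 59.3 for MAL (n = 5) and 2773 ± 242 for MAL-BG (n = 7), and Plxnb2 alone made up 33.2%, 33.6% and 32.3% of these sums.

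Groups were compared with the quasi-likelihood test of edgeR over all 14565 genes, and a gene was called when its adjusted p was under 0.05 and its log2 fold change was beyond 0.58 in either direction. In MAL-BG versus CON, 7 of the 58 genes were called higher and 14 lower, or 12.1% and 24.1% of the members, where 11.4% and 21.7% of all tested genes were called. In MAL-BG versus MAL, 7 were called higher and 12 lower, or 12.1% and 20.7%, against a background of 10.2% and 20.2%. The shares of called members were thus near those of all genes in both comparisons, and the differences lie in which genes moved. Higher in both comparisons were 6 genes, Efna1, Efna4, Ephb3, Nrp1, Nrp2 and Sema6c, where 8.17% of all genes were higher in both. Lower in both were 11 genes, Epha1, Ephb6, Plxna1, Plxnb1, Robo1, Robo2, Sema3b, Sema3e, Sema6d, Slit2 and Unc5c, where the background was 18.2%. Sema4b was higher against CON only, Unc5b was higher against MAL only, Epha3, Ephb1 and Sema3d were lower against CON only, Epha7 was lower against MAL only, and 35 genes were called in neither. The 2 comparisons share the 7 MAL-BG libraries, so a call in both is not a repeat. The count filter bears on the lower calls. Sema3d, Sema3e, Slit1, Robo1, Robo2, Unc5c, Epha1 and Epha5 passed it through CON and MAL libraries and would have failed it on MAL-BG libraries alone, so that their lower levels in MAL-BG are given as a description. 6 of these 8 genes were among the 14 called lower against CON and 5 among the 12 called lower against MAL. The median log2 fold change of the members was -0.30 against CON and -0.08 against MAL, beside -0.04 and -0.03 for all genes. It includes the 8 genes limited by the filter, with medians of -1.65 and -1.25. The 34 members with a mean of at least 10 CPM had medians of 0.015 and 0.117. The 24 members under 10 CPM had -0.954 and -0.845. No shift of the members as a whole is read from these medians.

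**Figure D2:**
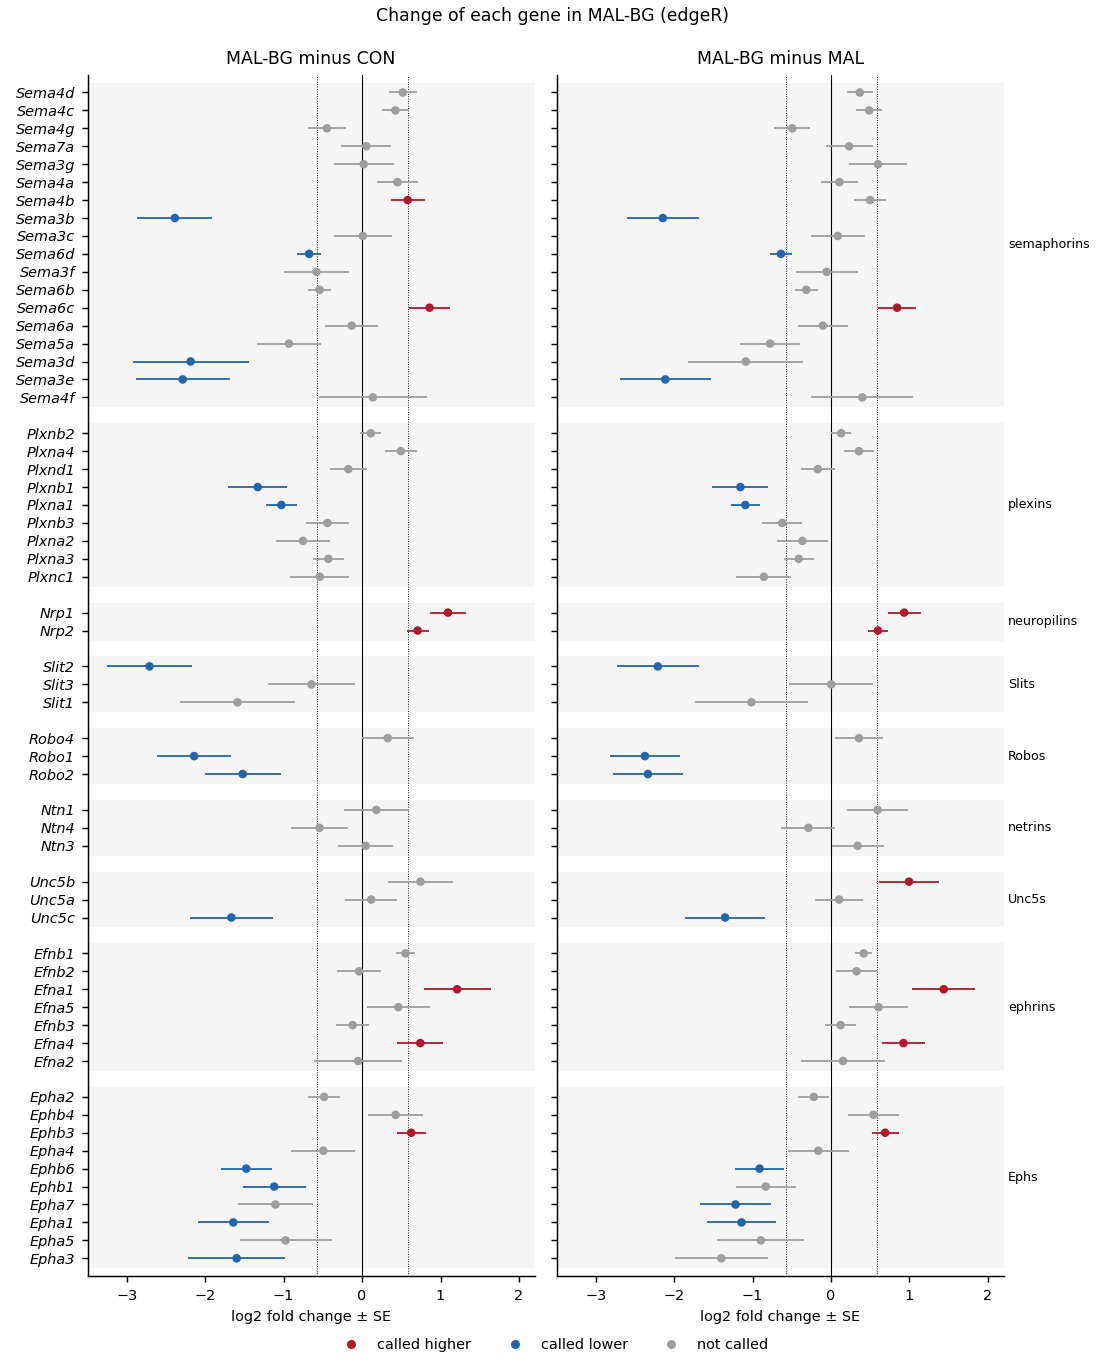
Log2 fold change of each of the 58 genes, MAL-BG minus CON (left) and MAL-BG minus MAL (right), with bars of 1 SE from edgeR and dotted lines at -0.58 and 0.58. Both neuropilins and 2 A-type ephrins lie to the right of the dotted lines in both panels, while Slit2, Sema3b, Sema3e and Robo1 are among the genes farthest to the left in both.

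In 4 genes the 7 MAL-BG libraries lay entirely apart from the other 9. Nrp2 and Efnb1 were above them, where 6.17% of all genes were, and Plxna1 and Robo1 were below, where 6.36% were. The calls were checked under 29 alternatives, namely 6 other scalings, each of the 16 libraries left out, and 7 other settings. In every one, the calls of Nrp1, Sema3b and Slit2 were kept in both comparisons. Those of Robo1 and Sema3e were kept too, but these genes had over 10 counts in 0 and 1 of the MAL-BG libraries. They passed the count filter through CON and MAL libraries, so their kept calls and the separation of Robo1 are given as a description only. The other 12 genes called in both lost a call under at least 1 alternative, without a change of sign under any scaling. Some genes called in neither comparison gained a call when 1 library was left out, namely Plxna2 (without CON replicate 1 or MAL-BG replicate 3), Plxnb3 (CON replicates 1 or 4, MAL replicate 3 or MAL-BG replicate 6), Plxnc1 (MAL-BG replicate 5), Sema5a (CON replicates 1 or 3 or MAL replicate 4), Sema6b (CON replicate 4 or MAL-BG replicate 3), Slit1 (MAL-BG replicate 6), Epha4 (MAL-BG replicate 3) and the genes Sema4c, Sema4d and Efnb1 described below. Setting the mean log2 CPM of all libraries equal moved the median of all genes by 0.29 against CON and 0.26 against MAL, and the split of calls among the 58 genes then became 13 higher and 11 lower against CON and 16 higher and 7 lower against MAL. Among the 11 genes lower in both, this scaling ended both calls of Sema6d and the call against MAL of Ephb6, Epha1 and Unc5c. Offsets for length and GC content ended both calls of Sema6d and Unc5c, and these offsets with equal means ended both calls of Sema6d, Unc5c, Plxna1 and Plxnb1, that of Robo2 against CON and those of Ephb6 and Epha1 against MAL. Among the 6 genes higher in both, scaling by total counts alone ended both calls of Ephb3, those of Efna1 and Efna4 against CON and that of Nrp2 against MAL. Upper-quartile scaling ended the call of Efna4 against CON and of Nrp2 against MAL, and the offsets ended those of Efna1 and Efna4 against CON. Of the genes called once, Sema4b and Unc5b lost the call with upper-quartile scaling and total counts, Epha3 and Epha7 with equal means, with offsets and with both, Ephb1 with equal means and with both, and Sema3d with both. Some genes called in neither comparison gained a call under another scaling. With equal means, offsets or both, Sema3g, Sema4a, Sema4c, Sema4d, Plxna4 and Plxnb2 were called higher in at least 1 comparison. So were Robo4, Ntn1, Efna5, Efnb1, Efnb2 and Ephb4. With total counts, Sema4g, Sema5a, Sema6b, Plxnb3, Plxnc1 and Epha2 were called lower in 1 comparison.

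Of the 6 secreted class 3 semaphorins, 3 were called lower against CON and 2 against MAL, and 0 were called higher. These are 50.0% and 33.3%, where 21.7% and 20.2% of all genes were called lower. Sema3d and Sema3e among them passed the count filter through CON and MAL libraries, so that only Sema3b is free of this limit. Sema3b, a ligand of neuropilins, was at 29.9, 90.8, 68.4 and 74.5 CPM in the 4 CON libraries, at 26.2, 91.2, 80.1, 14.7 and 66.1 CPM in the 5 MAL libraries and from 3.75 to 29.6 (median 10.7) in the 7 MAL-BG libraries. All MAL-BG libraries except replicate 3 lay below every CON and MAL library, and MAL-BG replicate 3 lay just below CON replicate 1 and above MAL replicates 1 and 4. The log2 fold change was -2.39 ± 0.48 (SE) against CON (adjusted p = 0.000918) and -2.15 ± 0.46 against MAL (adjusted p = 0.0015). Sema3e, which binds plexin-D1 without a neuropilin, was a rare transcript at 0.921, 1.58, 1.5 and 2.27 CPM in the 4 CON libraries, at 0.936, 1.27, 2.67, 0.805 and 1.27 CPM in the 5 MAL libraries and from 0 to 0.895 (median 0.295) in the 7 MAL-BG libraries. Only 1 MAL-BG library held more than 10 counts of it, so it entered the test through CON and MAL. The lowest MAL-BG library held 0 counts and only MAL-BG replicate 3 reached into the range of the other groups. Against CON the log2 difference came to -2.29 ± 0.60 (adjusted p = 0.0056), and against MAL it came to -2.11 ± 0.58 (adjusted p = 0.00734). Sema3d was called lower against CON only, and that call rested on 1 library. CON replicate 4 held 7.79 CPM and the other 3 CON libraries 0.230 to 1.02, and without it the log2 fold change was 0.06. Sema3c, Sema3f and Sema3g were called in neither comparison. Sema3g, with a log2 fold change of 0.60 against MAL, was called higher there with the mean log2 CPM of libraries set equal.

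Class 4 semaphorins, which are membrane ligands of B-type plexins and of immune receptors, had 1 call, Sema4b, which was higher against CON. Sema4d, also known as CD100, was at 268, 182, 207 and 159 CPM in the 4 CON libraries, at 276, 187, 184, 262 and 226 CPM in the 5 MAL libraries and from 198 to 358 (median 302) in the 7 MAL-BG libraries. The groups overlapped, since CON replicates 1 and 3 and MAL replicates 1, 4 and 5 lay above the lowest MAL-BG library, replicate 3. Its log2 difference from CON, 0.52 ± 0.18, had an adjusted p of 0.026 without passing the fold threshold, and that against MAL was 0.37 ± 0.17 (adjusted p = 0.081). Sema4c was at 154, 82.8, 93.0 and 69.5 CPM in the 4 CON libraries, at 103, 89.3, 79.0, 114 and 93.8 CPM in the 5 MAL libraries and from 118 to 155 (median 131) in the 7 MAL-BG libraries. CON replicate 1 was again inside the MAL-BG range, and the other 8 CON and MAL libraries lay below it. Its differences of 0.43 ± 0.18 (adjusted p = 0.0575) and 0.48 ± 0.16 (adjusted p = 0.0239) were not called. Without CON replicate 1 both Sema4c and Sema4d were called higher against CON, and Sema4d also without MAL-BG replicates 2 or 3. Both genes were called higher against CON and against MAL with equal means, alone or with length and GC offsets. Sema4b was called higher against CON only, a call that was lost without CON replicates 2, 3 or 4 or MAL-BG replicates 1, 5 or 6 (log2 fold change 0.45 to 0.93 over the 16 left-out libraries), and Sema4a, Sema4f and Sema4g were called in neither comparison.

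The class 6 semaphorins, membrane ligands of A-type plexins, split. Sema6c was at 7.9, 4.82, 6.22 and 7.34 CPM in the 4 CON libraries, at 7.15, 5.44, 8.17, 6.52 and 6.05 CPM in the 5 MAL libraries and from 6.67 to 17.7 (median 11.9) in the 7 MAL-BG libraries. MAL-BG replicates 5 and 6 stayed within the range of the other groups while the other 5 MAL-BG libraries exceeded it. Sema6c differed from CON by 0.86 ± 0.27 on the log2 scale (adjusted p = 0.0152) and from MAL by 0.84 ± 0.25 (adjusted p = 0.0113). The call against CON was lost without CON replicate 2, at a range of 0.74 to 0.96 over the left-out libraries. Sema6d, the ligand of plexin-A1 in myeloid cells, was at 37.4, 26.1, 28.5 and 40.7 CPM in the 4 CON libraries, at 37.7, 28.3, 38.8, 27.2 and 29.9 CPM in the 5 MAL libraries and from 16.6 to 27.4 (median 20.4) in the 7 MAL-BG libraries. Only the highest MAL-BG library, replicate 3, entered the range of the other groups. Its log2 difference amounted to -0.68 ± 0.15 relative to CON (adjusted p = 0.00227) and to -0.64 ± 0.14 relative to MAL (adjusted p = 0.00228). These changes were close to the threshold, so that leaving out CON replicate 4 or MAL-BG replicate 7 ended the call against CON, and leaving out MAL replicates 1 or 3 or MAL-BG replicates 2 or 7 that against MAL, at -0.77 to -0.56 and -0.72 to -0.54 over the left-out libraries. Both calls were also lost under 3 of 6 other scalings, with values as small as -0.13 against CON and -0.11 against MAL. Sema6a, Sema6b, Sema5a and Sema7a, a ligand of integrins held by a lipid anchor, were called in neither comparison. Summed over 18 members, semaphorin RNA was 845 ± 65.9 CPM for CON, 823 ± 41.9 for MAL and 889.7 ± 65.2 for MAL-BG, with the largest share from Sema4d in each group.

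Among the 9 plexins no member was called higher and 2 were called lower in each comparison. These are 22.2%, near the 21.7% and 20.2% of all genes called lower against CON and MAL. Plxnb2 (GRCm38 chr15:89155549-89180788, minus strand), the leading gene of all 58, was at 1025, 775, 832 and 689 CPM in the 4 CON libraries, at 841, 795, 764, 884 and 819.7 CPM in the 5 MAL libraries and from 737 to 1097 (median 898) in the 7 MAL-BG libraries. The 3 groups overlapped throughout, with log2 fold changes of 0.11 ± 0.13 against CON (adjusted p = 0.517) and 0.13 ± 0.12 against MAL (adjusted p = 0.416). Plxna4, a receptor of class 3 and class 6 semaphorins, was at 54.6, 49.3, 43.2 and 42.5 CPM in the 4 CON libraries, at 62.5, 36.3, 49.7, 56.7 and 56.0 CPM in the 5 MAL libraries and from 42.9 to 110.4 (median 61.5) in the 7 MAL-BG libraries. MAL-BG replicates 2 and 4 were above all other libraries and the other 5 MAL-BG libraries overlapped with MAL, and the differences of 0.49 ± 0.20 and 0.36 ± 0.19 were not called (adjusted p = 0.0558 and 0.131). Plxna4 was called higher in both comparisons with equal means, with length and GC offsets, and with both, at up to 1.12 against CON and 0.95 against MAL. Plxna1 (GRCm38 chr6:89316314-89362620, minus strand), the receptor of Sema6d and a signaling partner of neuropilin-1, was at 22.2, 26.2, 21.2 and 26.6 CPM in the 4 CON libraries, at 24.0, 29.1, 30.9, 15.9 and 25.8 CPM in the 5 MAL libraries and from 6.75 to 15.8 (median 11.7) in the 7 MAL-BG libraries. Every MAL-BG library lay below every CON and MAL library, with MAL replicate 4 nearest to them. On the log2 scale, Plxna1 moved by -1.03 ± 0.20 versus CON (adjusted p = 0.000628) and by -1.09 ± 0.18 versus MAL (adjusted p = 0.00028). With length and GC offsets and equal means these became -0.42 and -0.54, and both calls were lost. Plxnb1, the receptor of Sema4d, was at 32.8, 87.6, 61.5 and 79.6 CPM in the 4 CON libraries, at 40.4, 74.2, 87.8, 24.1 and 63.1 CPM in the 5 MAL libraries and from 11.9 to 55.9 (median 22.4) in the 7 MAL-BG libraries. MAL-BG replicate 3 was above CON replicate 1 and MAL replicates 1 and 4, MAL-BG replicates 2 and 4 were above MAL replicate 4 alone, and the 6 libraries other than replicate 3 were at 11.9 to 28.4 CPM. Against CON the log2 difference came to -1.33 ± 0.38 (adjusted p = 0.00891), and against MAL it came to -1.16 ± 0.36 (adjusted p = 0.0152), and the latter call was lost without MAL replicate 3. With length and GC offsets and equal means both calls were lost, at -0.70 and -0.59. The remaining members Plxna2, Plxna3, Plxnb3, Plxnc1 and Plxnd1 were called in neither comparison.

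Both neuropilins rose. Nrp1, the co-receptor of class 3 semaphorins and of VEGF-A, was at 204, 152, 168 and 205 CPM in the 4 CON libraries, at 196, 160.1, 188, 299.8 and 177 CPM in the 5 MAL libraries and from 250.3 to 529 (median 406) in the 7 MAL-BG libraries. MAL replicate 4 was above the lowest 2 MAL-BG libraries, replicates 5 and 6, and all other CON and MAL libraries were below the 7 MAL-BG libraries. Nrp1 differed from CON by 1.09 ± 0.23 on the log2 scale (adjusted p = 0.00125) and from MAL by 0.93 ± 0.21 (adjusted p = 0.0022). Nrp2 (GRCm38 chr1:62703285-62818695, plus strand), the co-receptor of Sema3f and VEGF-C, was at 39.9, 27.6, 28.0 and 32.1 CPM in the 4 CON libraries, at 38.6, 29.9, 34.2, 40.4 and 29.1 CPM in the 5 MAL libraries and from 43.8 to 60.4 (median 52.4) in the 7 MAL-BG libraries. The groups did not overlap, the highest of the 9 other libraries being MAL replicate 4. Its log2 difference amounted to 0.71 ± 0.14 relative to CON (adjusted p = 0.000892) and to 0.60 ± 0.13 relative to MAL (adjusted p = 0.00176). The value against MAL was only just past the fold threshold, and the call was lost without MAL replicates 2 or 5 or MAL-BG replicate 3 (range 0.54 to 0.66). Microglia markers moved in the same direction, 5 of 10 being called higher in each comparison, and endothelial markers did in part, with 3 of 8 called higher against CON and 4 of 8 against MAL. Summed endothelial markers were at 514 to 1820.0 CPM for CON, 467 to 1332 for MAL and 1107 to 3619 for MAL-BG. Neutrophil markers were higher in 7 of 8 genes in both comparisons, at 472 to 1215, 514 to 1059 and 538 to 11606 CPM summed. Oligodendrocyte markers were higher in 3 of 8 genes in both, at 419.7 to 1074, 594 to 927 and 501 to 1221 CPM. Of 5 tested lymphocyte markers, 2 were higher in both and 1 was lower against MAL, at 20.6 to 35.2, 24.5 to 46.9 and 43.0 to 76.5 CPM. None of these markers was at 0 in every MAL-BG library, and the part of these cell types in the neuropilin result and in the other higher genes was not tested. MAL-BG replicates 3 and 5, with the most endothelial and the most neutrophil RNA, were also left out together, a choice made after seeing the data. The log2 fold changes were then 1.09 against CON and 0.94 against MAL for Nrp1 and 0.70 (CON) and 0.59 (MAL) for Nrp2. All were still called, the last just past the fold threshold. The remaining MAL-BG libraries still held 1107 to 2426 CPM of summed endothelial markers and 838 to 2835 CPM of summed neutrophil markers. The neuropilins without RNA of these cells were therefore not tested.

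**Figure D3:**
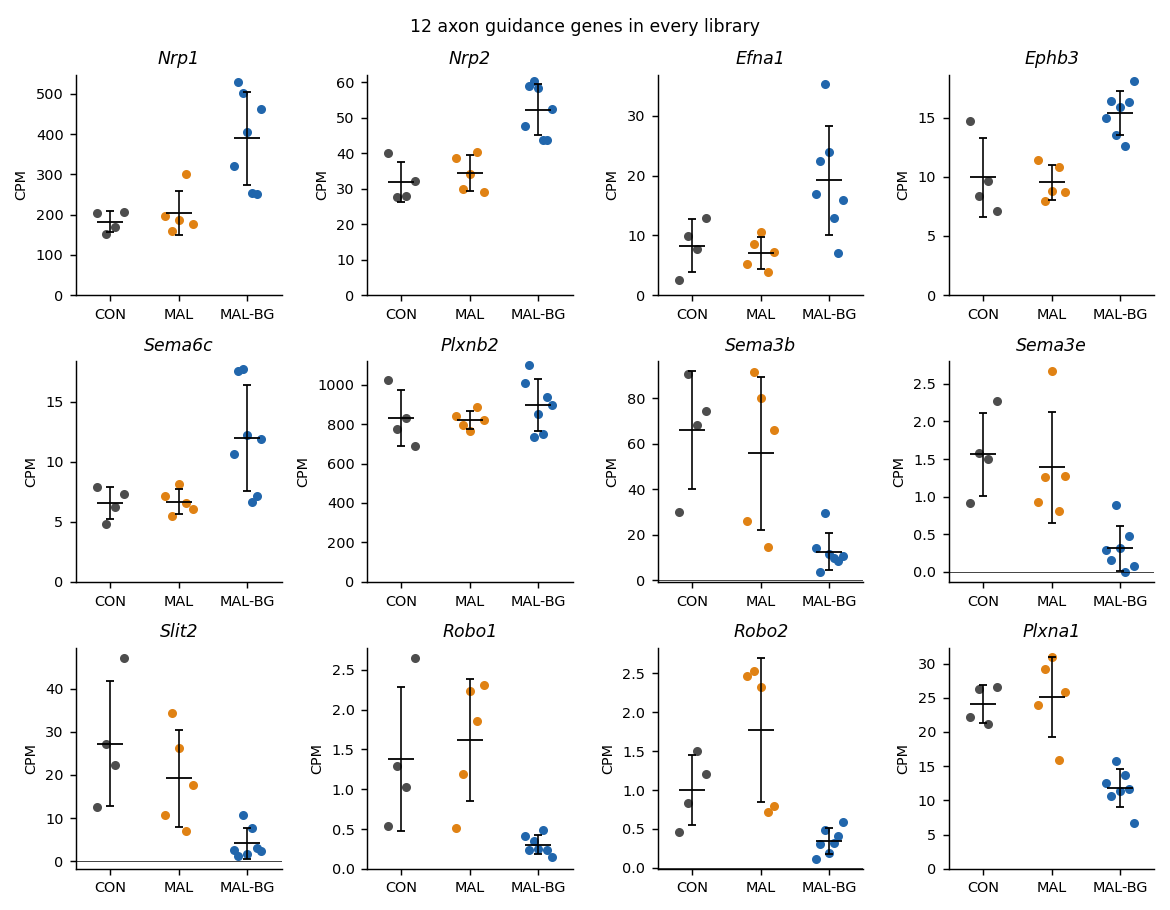
CPM of 12 genes in each library (points, in order of the replicate numbers within a group) with the mean and 1 SD (black), for CON (4 libraries), MAL (5) and MAL-BG (7). Each axis starts at or below 0. Nrp2 lies higher and Robo1 and Plxna1 lie lower in all 7 MAL-BG libraries than in the other 9, while Plxnb2 overlaps in all groups.

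The DNA just before the start sites of 4 of these genes is shown because they are Nrp1, the most abundant gene called in both comparisons, Efnb1, whose MAL-BG libraries all lay above the others, and Sema3e and Robo1, which were lower in both. RefSeq sequences of the GRCm38.p6 build were held for 50 of the 58 genes. The windows run over the 250 bases before the start, on the plus strand, from 5′ to 3′. No base of them is in an annotated exon of GENCODE M21. Those of Nrp1 and Robo1 lie within an intron of a longer transcript of the same gene, and those of Efnb1 and Sema3e lie outside annotated genes. Capitals mark 6 motifs searched on both strands, the GC box GGGCGG, the TATA box TATAAA, the E-box CACGTG, the AP-1 motif TGACTCA, the PU.1 core GAGGAA and the cyclic AMP response element TGACGTCA.
Nrp1, chr8:128358823-128359072: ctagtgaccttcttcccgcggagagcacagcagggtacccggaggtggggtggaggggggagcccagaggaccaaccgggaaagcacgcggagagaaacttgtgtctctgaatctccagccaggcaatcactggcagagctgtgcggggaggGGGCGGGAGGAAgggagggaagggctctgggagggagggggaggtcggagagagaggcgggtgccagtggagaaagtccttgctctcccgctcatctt
Efnb1, chrX:99135811-99136060: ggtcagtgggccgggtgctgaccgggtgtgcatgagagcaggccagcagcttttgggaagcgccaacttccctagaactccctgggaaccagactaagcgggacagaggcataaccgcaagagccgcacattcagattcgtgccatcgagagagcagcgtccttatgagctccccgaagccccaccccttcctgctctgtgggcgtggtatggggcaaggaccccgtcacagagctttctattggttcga
Sema3e, chr5:14025026-14025275: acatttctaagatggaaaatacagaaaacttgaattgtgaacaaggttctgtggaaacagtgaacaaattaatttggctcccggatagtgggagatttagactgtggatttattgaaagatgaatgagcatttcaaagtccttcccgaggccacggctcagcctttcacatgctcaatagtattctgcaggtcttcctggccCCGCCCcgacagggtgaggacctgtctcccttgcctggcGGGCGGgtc
Robo1, chr16:72662899-72663148: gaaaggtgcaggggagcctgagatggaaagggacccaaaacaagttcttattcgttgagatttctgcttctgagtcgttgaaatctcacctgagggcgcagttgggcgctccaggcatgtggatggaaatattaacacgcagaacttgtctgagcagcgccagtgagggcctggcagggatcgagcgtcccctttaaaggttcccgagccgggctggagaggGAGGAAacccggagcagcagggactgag
The Nrp1 window holds a GC box that begins 98 bases before the start, followed directly by GAGGAA, the core bound by the myeloid factor PU.1, at 92 bases. In Sema3e a GC box lies 48 bases before the start on the minus strand and another 9 bases before it on the plus strand. Robo1 has GAGGAA 28 bases before the start, and the Efnb1 window holds none of the 6 motifs. GGGCGG was present in 32.7% and GAGGAA in 23.3% of 32851 promoter windows of the same length, so that both are common letters. The windows were 64.4% (Nrp1), 60.0% (Efnb1), 48.0% (Sema3e) and 56.0% (Robo1) G and C.

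Slit2 fell, Robo1 and Robo2 were called lower, and Slit1, Slit3 and Robo4 were not called. No MAL-BG library held more than 10 counts of Robo1 or Robo2, which entered the test through CON and MAL libraries, so their values are a description of rare transcripts. Slit2, the ligand of Robo1 and Robo2, was at 12.5, 27.3, 22.3 and 47.1 CPM in the 4 CON libraries, at 10.7, 34.5, 26.3, 7.01 and 17.8 CPM in the 5 MAL libraries and from 1.07 to 10.7 (median 2.65) in the 7 MAL-BG libraries. MAL-BG replicates 3 and 5 were above MAL replicate 4 and below every other library of these groups, and the remaining 5 were at 1.07 to 2.97 CPM. The log2 difference from CON, -2.71 ± 0.55 (adjusted p = 0.000965), was the largest fall among the 58 genes, and that against MAL was -2.21 ± 0.52 (adjusted p = 0.00305). Slit3 was at 0.844, 3.62, 1.34 and 10.9 CPM in the 4 CON libraries, at 1.02, 3.21, 2.92, 3.54 and 2.63 CPM in the 5 MAL libraries and from 0.772 to 4.06 (median 2.77) in the 7 MAL-BG libraries. CON replicate 4 stood above all other libraries, the rest overlapped, and the difference of -0.65 ± 0.55 against CON (adjusted p = 0.354) changed to 0.48 without that library. Against MAL it was 0.00 ± 0.53 (adjusted p = 0.999). Slit1 was called in neither comparison.

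Robo1, a receptor of Slits in neurons, was at 0.537, 1.3, 1.02 and 2.65 CPM in the 4 CON libraries, at 0.51, 1.19, 2.24, 1.85 and 2.31 CPM in the 5 MAL libraries and from 0.148 to 0.488 (median 0.249) in the 7 MAL-BG libraries. All 7 MAL-BG libraries lay below all others, of which CON replicate 1 and MAL replicate 1 were nearest. On the log2 scale, Robo1 moved by -2.14 ± 0.47 versus CON (adjusted p = 0.00176) and by -2.37 ± 0.45 versus MAL (adjusted p = 0.000617). Robo2 was at 0.46, 0.834, 1.5 and 1.21 CPM in the 4 CON libraries, at 2.47, 2.54, 2.32, 0.725 and 0.796 CPM in the 5 MAL libraries and from 0.118 to 0.593 (median 0.325) in the 7 MAL-BG libraries. MAL was divided, with replicates 1, 2 and 3 above 2 CPM and replicates 4 and 5 below 1 CPM, and MAL-BG replicates 3 and 7 overlapped with CON replicate 1. The log2 fold change was -1.52 ± 0.48 against CON (adjusted p = 0.0174), a call that was lost without CON replicates 3 or 4 (range -1.76 to -1.26), and -2.33 ± 0.45 against MAL (adjusted p = 0.000695). Robo4, the member of the family that is known from endothelium, behaved otherwise. It was at 17.4, 24.3, 27.4 and 43.3 CPM in the 4 CON libraries, at 31.1, 31.9, 35.7, 11.1 and 27.9 CPM in the 5 MAL libraries and from 21.6 to 65.3 (median 29.1) in the 7 MAL-BG libraries, with the highest value in MAL-BG replicate 3, and all groups overlapped. Its differences of 0.33 ± 0.33 and 0.36 ± 0.31 were not called (adjusted p = 0.438 and 0.359). Because Robo4 made up 92.2% of Robo CPM in CON and 98.2% in MAL-BG, the summed level of the family did not follow Robo1 and Robo2 and was 30.5 ± 12.1 CPM in CON and 35.9 ± 15.2 for MAL-BG.

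Markers of several other cell types moved with these lower genes. Neuron markers were lower in 9 of 10 genes in both comparisons, with summed levels of 100.4 to 502 CPM for CON, 118 to 415 for MAL and 23.8 to 70.7 for MAL-BG. Choroid plexus markers were lower in 8 of 8 genes against CON and in 7 of 8 against MAL, at 10664 to 41050.0, 4959 to 32387 and 1464 to 13083 CPM. Ependymal markers were lower in 7 of 7 and 6 of 7, at 124 to 229.5, 53.7 to 219 and 27.3 to 99.1 CPM. Astrocyte markers were lower in 5 of 8 and 6 of 8, at 281 to 619, 339 to 562 and 145 to 267 CPM. Against CON and MAL, oligodendrocyte precursor markers were lower in 3 of 5 genes each, monocyte markers in 3 and 4 of 8, border macrophage markers in 1 and 2 of 7, fibroblast markers in 0 and 1 of 7 and mural markers in 2 and 3 of 8, while 2 other mural markers were higher against MAL. None of the genes of these lists was at 0 in every MAL-BG library. Their part in the lower axon guidance genes was not tested. In such bulk samples, fewer cells of a type and less RNA of a gene per cell cannot be told apart. With CON replicate 1 and MAL replicate 4 left out together, 12 members were higher and 15 lower against CON, or 20.7% and 25.9%, where 17.4% and 21.6% of all genes were, and 8 were higher and 13 lower against MAL, or 13.8% and 22.4%, where 15.1% and 20.4% of all genes were.

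**Figure D4:**
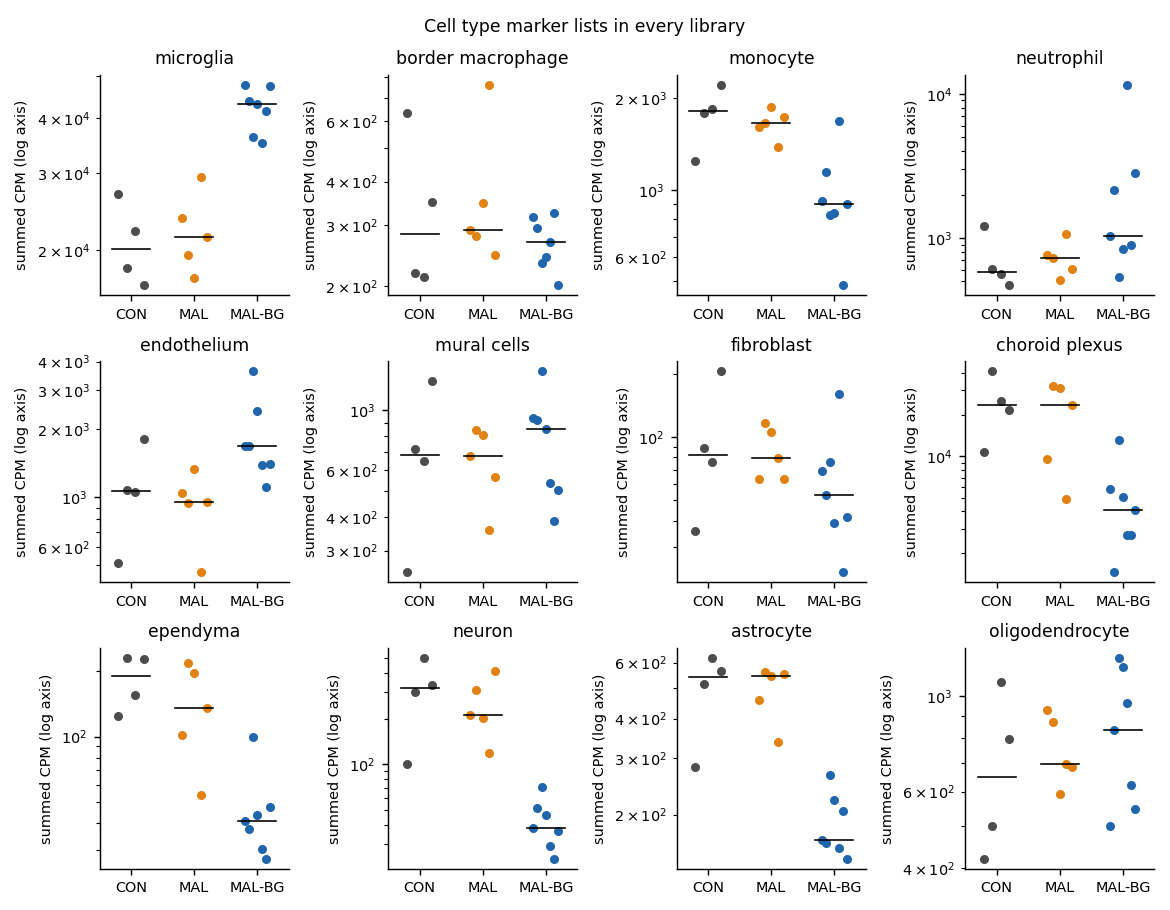
Summed CPM (log axis) of 12 cell type marker lists in each library (points) with the group median (line), for CON (4 libraries), MAL (5) and MAL-BG (7). Microglia markers lie higher, and neuron, choroid plexus and ependyma markers lower, in MAL-BG, and MAL-BG replicate 5 has the highest neutrophil value.

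Netrins were called in neither comparison. Ntn1, or netrin-1, the ligand of Dcc and the Unc5 receptors, was at 7.14, 20.3, 19.3 and 47.9 CPM in the 4 CON libraries, at 14.6, 23.4, 23.4, 7.17 and 20.4 CPM in the 5 MAL libraries and from 17.6 to 52.8 (median 24.2) in the 7 MAL-BG libraries. CON replicate 4 and MAL-BG replicate 3 were both high, CON replicate 1 and MAL replicate 4 were low, and the differences were 0.18 ± 0.42 against CON (adjusted p = 0.745) and 0.59 ± 0.39 against MAL (adjusted p = 0.228). Ntn4, or netrin-4, a component of basement membranes, was at 8.36, 24.4, 16.1 and 31.3 CPM in the 4 CON libraries, at 14.5, 21.7, 25.4, 6.68 and 15.8 CPM in the 5 MAL libraries and from 7.56 to 20.9 (median 12.4) in the 7 MAL-BG libraries. The groups overlapped, with differences of -0.54 ± 0.36 and -0.29 ± 0.34 (adjusted p = 0.234 and 0.51). Ntn3 shares exon sequence with Tbc1d24 on the same strand, so its counts are uncertain. The same holds for Nrp1 with Mir1903 on its strand, and, since the strand setting of the counting is not given, for genes that share exon bases with one on the other strand, among them Sema4c, Plxna1, Plxna4, Plxnb1, Unc5a, Unc5c, Efna4, Ephb4 and Epha1.

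Of the Unc5 receptors, Unc5b, which is known from vessels, was at 9.59, 15.3, 15.5 and 39.3 CPM in the 4 CON libraries, at 15.7, 20.0, 24.1, 7.33 and 16.8 CPM in the 5 MAL libraries and from 14.9 to 62.5 (median 26.6) in the 7 MAL-BG libraries. MAL-BG replicates 3 and 4 were above all other libraries, and the other 5 overlapped with CON and MAL. It was called higher against MAL with a log2 fold change of 0.99 ± 0.39 (adjusted p = 0.0459) and was not called against CON (0.74 ± 0.41, adjusted p = 0.152), and the difference between these effects is the MAL versus CON contrast of -0.25 ± 0.43, which was not called. The call against MAL was lost without any of 8 libraries (CON replicates 2 or 3, MAL replicates 1, 2, 4 or 5, MAL-BG replicates 3 or 4), at a range of 0.77 to 1.16, and without CON replicate 4 the gene was called against CON too. Unc5a was at 1.69, 2.13, 4.17 and 1.66 CPM in the 4 CON libraries, at 2.38, 2.24, 1.63, 2.58 and 3.34 CPM in the 5 MAL libraries and from 1.6 to 3.83 (median 2.49) in the 7 MAL-BG libraries, the groups overlapped, and the differences of 0.12 ± 0.33 and 0.10 ± 0.31 were not called (adjusted p = 0.797 and 0.804). Unc5c was a rare transcript at 0.153, 1.58, 0.709 and 3.03 CPM in the 4 CON libraries, at 0.766, 0.969, 0.86, 1.45 and 1.43 CPM in the 5 MAL libraries and from 0.23 to 0.747 (median 0.413) in the 7 MAL-BG libraries. CON replicate 1 was the lowest of all 16 libraries, CON replicate 3 lay within the MAL-BG range, and CON replicates 2 and 4 and all MAL libraries lay above it. Against CON the log2 difference came to -1.67 ± 0.53 (adjusted p = 0.0168), and against MAL it came to -1.35 ± 0.51 (adjusted p = 0.039). Only 1 MAL-BG library held more than 10 counts of Unc5c, which entered the test through CON and MAL, so these values are a description. Leaving out CON replicate 4 ended the call against CON, and leaving out any of 10 libraries (MAL replicates 2 to 5, MAL-BG replicates 1, 2, 3, 5, 6 or 7) that against MAL, with ranges of -2.04 to -0.90 and -1.50 to -1.20.

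Among the 7 ephrins 2 A-type members were called higher in each comparison and none lower. These are 28.6%, where 11.4% and 10.2% of all genes were called higher against CON and MAL. Efna1, or ephrin-A1, a ligand of Epha2, was at 2.53, 9.92, 7.72 and 12.9 CPM in the 4 CON libraries, at 5.28, 8.5, 10.6, 3.87 and 7.16 CPM in the 5 MAL libraries and from 7.01 to 35.3 (median 16.9) in the 7 MAL-BG libraries. MAL-BG replicate 3 was highest, and MAL-BG replicates 5 and 6 were within the range of CON. Efna1 differed from CON by 1.21 ± 0.43 on the log2 scale (adjusted p = 0.0293) and from MAL by 1.44 ± 0.40 (adjusted p = 0.00816). Leaving out CON replicates 1 or 3 or MAL-BG replicate 3 ended the call against CON (range 0.91 to 1.52). Efna4 was at 1.61, 1.39, 1.42 and 1.97 CPM in the 4 CON libraries, at 0.851, 1.34, 1.98, 1.05 and 1.83 CPM in the 5 MAL libraries and from 1.9 to 3.51 (median 2.61) in the 7 MAL-BG libraries. MAL-BG replicate 5 lay below CON replicate 4 and MAL replicate 3, and the 6 others exceeded every CON and MAL library. Its log2 difference amounted to 0.74 ± 0.29 relative to CON (adjusted p = 0.0468) and to 0.92 ± 0.27 relative to MAL (adjusted p = 0.0117). The call against CON was near its limit, and any 1 of 9 libraries left out (CON replicates 1 to 4, MAL replicates 2 or 5, MAL-BG replicates 2, 3 or 7) ended it (range 0.67 to 0.86). Efnb1, or ephrin-B1, the most abundant ephrin, was at 39.5, 26.8, 37.5 and 35.1 CPM in the 4 CON libraries, at 41.9, 36.8, 38.6, 38.0 and 35.9 CPM in the 5 MAL libraries and from 43.2 to 58.2 (median 52.9) in the 7 MAL-BG libraries. Every MAL-BG library was above every other library, with MAL replicate 1 the nearest. The log2 differences of 0.55 ± 0.12 from CON (adjusted p = 0.00128) and 0.42 ± 0.11 from MAL (adjusted p = 0.00533) passed the p threshold in both and the fold threshold in neither, and it was called against CON once CON replicates 1 or 3 or MAL-BG replicates 1, 4 or 7 were left out. With equal means Efnb1 was called higher in both comparisons, at 0.84 and 0.68. The same held with equal means and length and GC offsets. Efnb2, the ligand of Ephb4 in arteries, was at 12.4, 25.3, 19.1 and 29.2 CPM in the 4 CON libraries, at 15.1, 14.5, 23.0, 9.99 and 21.0 CPM in the 5 MAL libraries and from 14.1 to 36.9 (median 18.9) in the 7 MAL-BG libraries, with differences of -0.04 ± 0.28 and 0.33 ± 0.27 (adjusted p = 0.922 and 0.335), and the groups overlapped. Efna2, Efna5 and Efnb3 were called in neither comparison. The summed ephrin level was 78.0 ± 11.8 CPM for CON, 73.8 ± 9.49 for MAL and 107 ± 20.9 for MAL-BG.

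Eph receptors mostly fell where they moved, with 1 higher and 4 lower against CON and 1 higher and 3 lower against MAL. Epha2, the receptor of ephrin-A1 and the most abundant Eph receptor, was at 124, 85.5, 85.5 and 78.8 CPM in the 4 CON libraries, at 69.0, 46.5, 76.7, 109 and 88.9 CPM in the 5 MAL libraries and from 56.0 to 104 (median 61.5) in the 7 MAL-BG libraries. MAL-BG replicate 2 was within the upper range of CON, the other MAL-BG libraries were below all CON libraries, and the differences of -0.48 ± 0.21 against CON (adjusted p = 0.0659) and -0.22 ± 0.20 against MAL (adjusted p = 0.373) were not called. Ephb4, known from veins, was at 8.6, 18.4, 14.7 and 27.9 CPM in the 4 CON libraries, at 14.6, 18.6, 24.2, 9.02 and 14.1 CPM in the 5 MAL libraries and from 13.3 to 45.5 (median 19.8) in the 7 MAL-BG libraries, again with the highest value in MAL-BG replicate 3, and its differences of 0.43 ± 0.35 and 0.54 ± 0.32 were not called (adjusted p = 0.329 and 0.183). Ephb3, a receptor of B-type ephrins, was at 14.7, 8.34, 9.69 and 7.11 CPM in the 4 CON libraries, at 11.4, 7.98, 8.77, 10.9 and 8.75 CPM in the 5 MAL libraries and from 12.6 to 18.1 (median 15.9) in the 7 MAL-BG libraries. CON replicate 1 lay within the MAL-BG range, and the other CON and all MAL libraries lay below it. The log2 fold change was 0.63 ± 0.19 against CON (adjusted p = 0.0121), a call that was lost without CON replicates 2 or 4 (range 0.49 to 0.88), and 0.69 ± 0.17 against MAL (adjusted p = 0.00456).

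Ephb6, an Eph receptor that lacks kinase activity, was at 3.45, 5.66, 4.25 and 7.34 CPM in the 4 CON libraries, at 4.42, 3.5, 2.41, 4.11 and 3.02 CPM in the 5 MAL libraries and from 0.742 to 3.22 (median 1.72) in the 7 MAL-BG libraries. MAL-BG replicates 2 and 5 overlapped with the lowest MAL libraries, and all MAL-BG libraries were below all CON libraries. On the log2 scale, Ephb6 moved by -1.48 ± 0.32 versus CON (adjusted p = 0.0017) and by -0.91 ± 0.31 versus MAL (adjusted p = 0.0247). Epha1 was at 1.07, 3.06, 1.57 and 2.42 CPM in the 4 CON libraries, at 0.936, 2.46, 2.15, 0.483 and 1.11 CPM in the 5 MAL libraries and from 0.23 to 1.24 (median 0.589) in the 7 MAL-BG libraries. MAL-BG replicate 3 was above CON replicate 1 and 3 of the MAL libraries, and the remaining 6 were below all CON libraries. Against CON the log2 difference came to -1.64 ± 0.45 (adjusted p = 0.00772), and against MAL it came to -1.14 ± 0.44 (adjusted p = 0.0428). Only 2 MAL-BG libraries held more than 10 counts of Epha1, which entered the test through CON and MAL, so these values are a description. The call against MAL was lost without MAL replicate 1 or MAL-BG replicate 4 in Ephb6 (range -1.04 to -0.73) and without any 1 of 9 libraries in Epha1 (CON replicate 3, MAL replicates 2, 3 or 5, MAL-BG replicates 1, 2, 4, 5 or 7, range -1.38 to -0.85). Of the other Eph receptors, Epha3 and Ephb1 were called lower against CON and Epha7 against MAL, all at a mean of under 4 CPM, while Epha4 and Epha5 were called in neither comparison. The Ephb1 call was lost without CON replicates 3 or 4 or MAL-BG replicates 1, 4 or 7, the Epha3 call without any library but CON replicates 1 and 3, MAL replicate 4 and MAL-BG replicate 3, and the Epha7 call without MAL replicates 2, 3 or 5 or MAL-BG replicates 1, 2, 4 or 7.

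Most of the falling genes were rare transcripts. Of the 34 members with a mean of at least 10 CPM over the 16 libraries, 5 were called higher and 5 lower in each comparison. The 24 members under 10 CPM had 2 higher and 9 lower against CON and 2 higher and 7 lower against MAL. The 8 genes that passed the count filter through CON and MAL libraries are among them. They hold 6 of these 9 lower calls against CON and 5 of these 7 against MAL. The share of lower calls among all genes of a similar level was not computed, so no excess is read from these counts. No member passed through MAL-BG libraries alone. The 11 rows that failed the filter were Sema5b, Epha6, Dcc, Efna3, Epha10, Ephb2, Epha8, Sema3a, Ntn5, Unc5d and Robo3. Their largest count in a library was 3 to 18 in all but Sema3a, which held 64 of its 76 CON counts in CON replicate 4. Dcc, the classical netrin receptor, held 14 counts over the CON libraries, 30 over MAL and 21 over MAL-BG.

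**Figure D5:**
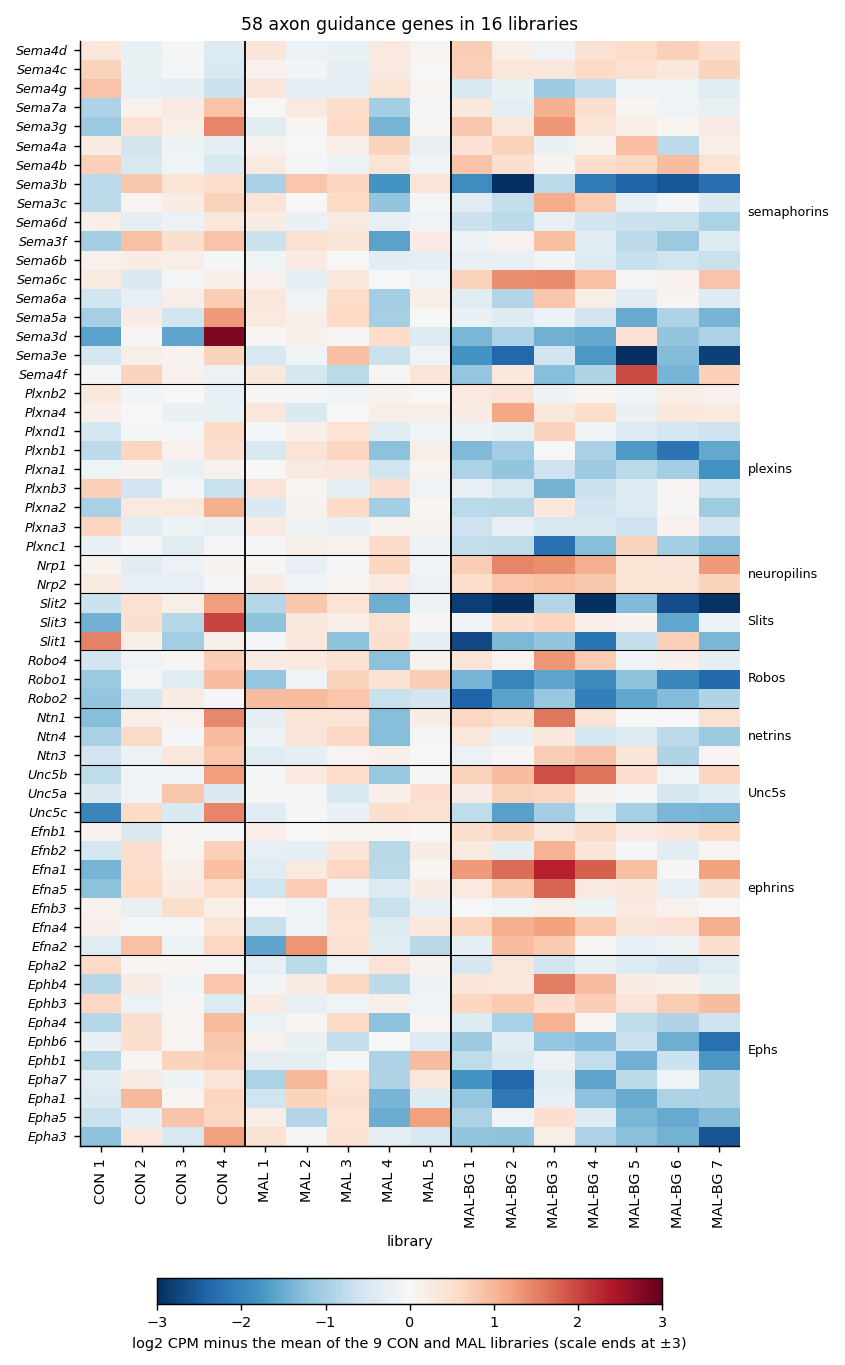
Log2 CPM of the 58 genes in the 16 libraries, as the difference from the mean of the 9 CON and MAL libraries, with colours that end at -3 and 3. The 7 MAL-BG columns are red in Nrp1, Nrp2 and Efnb1 and blue in Slit2, Robo1, Sema3b and Plxna1, while CON replicates 1 and 4 and MAL replicate 4 differ from the other libraries of their groups in many genes.

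The malnourished diet without the bacteria gave no called member. In MAL versus CON, 0 of 58 genes were called by edgeR, as were 0 of all 14565 genes (0%), and DESeq2 also called 0. At an unadjusted p under 0.05 there were 0 members and 212 of all genes with edgeR and 241 of all genes with DESeq2. The largest differences had wide errors. Robo2 had a log2 fold change of 0.81 ± 0.50, with 0.46, 0.834, 1.5 and 1.21 CPM in CON and 2.47, 2.54, 2.32, 0.725 and 0.796 CPM in MAL, and Sema3d had -1.10 ± 0.79. For the abundant members the errors were smaller, at -0.02 ± 0.14 for Plxnb2, 0.16 ± 0.24 for Nrp1, 0.11 ± 0.15 for Nrp2 and 0.14 ± 0.12 for Efnb1. The median SE over the 58 genes was 0.38, which limits what this comparison could detect. Leaving out CON replicate 1 raised the number of genes with an unadjusted p under 0.05 to 1086, 2 of them members, and still called none.

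Genes that work with the guidance receptors were counted from 5 lists, to be read against the 11.4% of all genes called higher and 21.7% called lower against CON, and the 10.2% and 20.2% against MAL. In each list 1 gene was higher in each comparison, which is 6.25% to 9.09% of a list and below these shares. Lower genes other than Arhgef12 and Vav2 are named after their values were seen, with log2 fold changes against CON. Of 11 tested semaphorin partners, 4 were lower in each comparison, or 36.4%. Trem2, a microglial receptor that pairs with plexin-A1, was at 755 ± 190.2 CPM in CON and 1844 ± 422 in MAL-BG (SD, n = 4 and 7), and its 7 MAL-BG libraries were all above the others (log2 fold change 1.29 ± 0.22, adjusted p = 0.000326). Its adaptor Tyrobp at 0.02 ± 0.23 and the integrin subunit Itgb1 at 0.24 ± 0.12 were not called against CON (adjusted p = 0.95 and 0.116). The lower ones were the neural adhesion genes L1cam (-0.93 ± 0.28), Nrcam (-1.26 ± 0.35) and Chl1 (-1.99 ± 0.58) and the integrin subunit Itga1 (-1.07 ± 0.37). Of 16 semaphorin effectors, 8 were lower in each comparison, or 50.0%. Dpysl2, also known as CRMP2, rose from 124 ± 43.5 to 257 ± 40.6 CPM (log2 fold change 1.05 ± 0.19, adjusted p = 0.000499), and Arhgef12, an exchange factor that B-type plexins bind, fell from 130.5 ± 26.2 to 72.1 ± 19.1 CPM (-0.85 ± 0.20, adjusted p = 0.00253). The kinase gene Fes had a difference of 0.31 ± 0.22 and was not called (adjusted p = 0.261). The other lower genes were Arhgef11 (-0.70 ± 0.15), Farp1 (-0.65 ± 0.18), Farp2 (-0.68 ± 0.24), Mical2 (-1.37 ± 0.33) and, from the same family as Dpysl2, Crmp1 (-2.58 ± 0.48), Dpysl4 (-3.04 ± 0.49) and Dpysl5 (-1.15 ± 0.40). The median log2 fold change was -0.06 for the partners and -0.66 for the effectors against CON, beside -0.04 for all genes.

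Of 11 Slit and Robo effectors, 2 were lower against CON (18.2%) and 1 against MAL (9.09%), both shares under those of all genes. The most abundant, Srgap2, a GTPase-activating protein that binds Robo, had a difference of -0.21 ± 0.22, Cap1 of -0.18 ± 0.19, and the actin regulator Vasp rose by 0.61 ± 0.13 on the log2 scale (adjusted p = 0.00162). Srgap3, a relative of Srgap2, was lower in both comparisons (-1.66 ± 0.21), and Enah, of the same family as Vasp, was lower against CON only (-1.13 ± 0.36). Of 16 netrin and RGM partners, 6 were lower against CON (37.5%) and 4 against MAL (25.0%). Rgmb, a ligand of neogenin, rose from 47.2 ± 16.7 to 85.5 ± 16.6 CPM (0.86 ± 0.20, adjusted p = 0.00233), while Trio and Ablim1 had differences of -0.42 ± 0.13 and -0.01 ± 0.30 and were not called. Among those lower in both comparisons were Ablim3 (-1.70 ± 0.41), Lrrc4c (-1.66 ± 0.59) and Dscam (-1.93 ± 0.72), and Rgma (-0.88 ± 0.33) and Dscaml1 (-1.09 ± 0.43) were lower against CON only. Of 12 Eph and ephrin effectors, 4 were lower against CON (33.3%) and 6 against MAL (50.0%). Adam10, a protease that sheds ephrins, rose from 213 ± 13.1 to 354 ± 38.7 CPM (0.73 ± 0.11, adjusted p = 0.000111), and Rasa1 and Vav2 had differences of -0.02 ± 0.12 and -0.95 ± 0.40 against CON and were not called there. Chn1 (-2.88 ± 0.41), Ngef (-2.34 ± 0.31), Kalrn (-2.05 ± 0.35) and Itsn1 (-1.07 ± 0.15) were lower in both comparisons, and Vav2 and Vav3 against MAL only. The median against CON was -0.16 for the Slit and Robo effectors, -0.67 for the netrin and RGM partners and -0.81 for the Eph and ephrin effectors. Neuron and astrocyte markers were lower in the same libraries, as given above, and their part in these lower genes was not tested.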

How the data were processed

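RNA-Seq counts per gene of 16 libraries of CD11b+ brain cells were used as deposited. Per the labels and the methods of the study, the authors aligned paired reads with STAR to GRCm38 and counted them with HTSeq, without stating the strand setting or the annotation. The study's batch term was not fitted here, because no source used here names the batch of a column. Of 24421 rows, 14565 exceeded 10 counts in 4 or more libraries and were tested with edgeR 4.0.16 in R 4.3.3 (TMM scaling, quasi-likelihood F test, all 3 groups in one fit, prior count 2, Benjamini-Hochberg adjustment over all tested genes in each comparison). A gene was called at an adjusted p under 0.05 and a log2 fold change beyond 0.58. DESeq2 1.42.0 was an alternative, as were other scalings, filters, thinning to 10312703 counts and each library left out. CPM were computed on the TMM-scaled totals. Levels per kilobase used GENCODE M21 exon lengths, matched for 14023 genes (96.3%). Promoters were taken from RefSeq (GRCm38.p6) for 50 of 58 members. Values are given, in each family, for up to 4 members called in both MAL-BG comparisons (those of the largest mean CPM), for the 2 of the largest mean CPM, and for a member called once where its family has no other call. Members and lists were chosen with earlier results of these data known. Errors are SE for log2 fold changes and SD for levels, and counting error limits rare transcripts. Library totals are given with the results. A further gene list is not reported here.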

Additional observations from a re-analysis of the deposited data

Results flagged for a closer look

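8 values lay farther from the rest of their group than Dixon's criterion allows at 95%, among 93 groups of 4 to 7 libraries checked, where chance flags about 1 in 20. MAL-BG replicate 3 was the high library in 4 of them, with 29.6 CPM of Sema3b, 55.9 CPM of Plxnb1, 52.8 CPM of Ntn1 and 36.9 CPM of Efnb2. The other values were 2.67 CPM of Sema3e in MAL replicate 3, 299.8 CPM of Nrp1 in MAL replicate 4, and, for Epha2, 124 CPM in CON replicate 1 and 104 CPM in MAL-BG replicate 2. MAL-BG replicate 3 also held the highest summed endothelial, neuron, choroid plexus and ependyma marker levels of its group, and the part of these in its values was not tested.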

How the results depend on the processing

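No paired analysis was possible because the columns carry running numbers that match no sample title, so no column can be tied to a numbered replicate. The members called higher against CON numbered 7, and 3 with total counts only, 13 with the mean log2 CPM of libraries set equal, 15 with that and length and GC offsets, 12 without CON replicate 1 and MAL replicate 4 (chosen after seeing the data), and 3 to 8 with 1 library left out (3 without CON replicate 2). The 14 lower members became 6 with offsets and equal means, and 9 to 18 with 1 library left out (9 without CON replicate 4). Against MAL, the 7 higher members became 4, 16 and 18 with total counts, equal means, and offsets with equal means, and the 12 lower ones 7 with equal means and 5 with offsets and equal means. The median of the members against CON, -0.30, became -0.02 with equal means, 0.12 with offsets and equal means, and -0.42 to -0.005 with 1 library left out (-0.005 without CON replicate 4), and that against MAL, -0.08, became 0.32 with offsets and equal means. Of all calls, 34.4% against CON and 33.4% against MAL were higher, beside 61.4% and 62.2% with equal means, 61.5% and 61.3% with offsets as well, 22.5% and 20.1% with total counts, and 44.6% against CON without CON replicate 1 and MAL replicate 4. Total counts moved the median of all genes by -0.13 against CON and -0.14 against MAL, and offsets with equal means by 0.29 and 0.27.

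Several differences that were not called changed sign. Efnb2 against CON became 0.25 with equal means, 0.10 with offsets, 0.39 with both, and -0.23 to 0.15 with 1 library left out. Epha2 against MAL became 0.033 with equal means and 0.037 with offsets and equal means. Plxnb2 became -0.016 against CON and -0.014 against MAL with total counts. With length and GC offsets and equal means it became 0.65 against CON and 0.60 against MAL and was called higher in both. Ntn1 against CON became -0.047 without CON replicate 1 and MAL replicate 4, -0.031 without MAL-BG replicates 3 and 5 (both chosen after seeing the data), and -0.12 to 0.79 with 1 library left out. Slit3 ranged from -0.99 to 0.48 against CON and from -0.20 to 0.16 against MAL with 1 library left out, and against MAL it became -0.019 with upper-quartile scaling, -0.13 with total counts, -0.012 with only the compared groups and -0.18 without MAL-BG replicates 3 and 5. Unc5a became -0.015 with total counts and -0.19 with thinned libraries against CON (-0.027 to 0.52 with 1 library left out), and -0.03 and -0.19 against MAL (-0.009 to 0.24). The cause of these changes was not tested. Depth limits the members under 1 CPM, such as Robo1 and Robo2, where a library holds few counts.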
